A study of Mus musculus with 6 samples.

Results

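The 42 genes described here encode proteins that build ribosomes in the nucleolus, together with the network of transcription factors around Myc. They were listed by gene symbol for these roles, and all 42 were present among the 30733 gene symbols of the deposited tables. RNA sequencing was done on cells labelled as hematopoietic stem cells, the bone marrow cells from which blood lineages arise. Wild-type (WT) mice of 12 months gave the bone marrow, and a sort on MHC class II, the antigen-presenting complex, split the cells into MHCII-hi (3 libraries) and MHCII-lo (3 libraries). Both fractions share the labelled genotype, age and tissue, and their labels differ in the MHCII gate. Neither the stem cell gate nor the number of mice is stated in the labels. Since no label ties libraries to separate mice, the p-values below rest on library-to-library spread alone, and that spread may be technical.

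Ribosomes begin in the nucleolus, where RNA polymerase I transcribes the long precursor of ribosomal RNA. Small nucleolar RNPs then modify it, and some are needed for its cutting. Those of the box C/D kind methylate riboses and those of the box H/ACA kind convert uridine to pseudouridine. Assembly factors fold the precursor into the small and the large subunit. Myc, which binds DNA as a dimer with Max at the sequence CACGTG (the E-box), is a known activator of many of these genes, while dimers of Max with Mxd proteins, Mxi1 or Mnt bind the same sequence and repress. In blood, Myc is associated with growth and division of progenitors, and Mxd1 with their terminal differentiation.

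Expression was read as FPKM, fragment numbers divided by transcript length and by the library's total, a level that can be compared between genes but is relative within a library. Between 11978 and 12054 genes per library reached 1 FPKM. A gene was tested when its mean over the 6 libraries was at least 1 FPKM, which left 12037 genes and 40 of the 42 members; Mycn and Mycl lay below. Differences are given as log2 fold changes of FPKM + 1, MHCII-hi minus MHCII-lo, with limma and Benjamini-Hochberg adjustment over all 12037 genes, and a change is one with an adjusted p under 0.05. The median tested gene stood at −0.12 on this scale and at −0.01 after median-ratio scaling, so relative values below are given against it where they matter. As a check of the sort, Cd74 and the MHCII genes H2-Eb1, H2-Ab1 and H2-Aa all rose in MHCII-hi (for H2-Eb1, 15.8 ± 0.786 FPKM in MHCII-hi and 6.30 ± 0.404 FPKM in MHCII-lo, SD, n = 3 each). Of 15 stem cell markers, 7 stayed under 1 FPKM in every library, among them Procr (0.543 ± 0.228 FPKM in MHCII-hi and 0.17 ± 0.06 FPKM in MHCII-lo) and Slamf1 (0.257 ± 0.0404 FPKM in MHCII-hi and 0.217 ± 0.0808 FPKM in MHCII-lo), both of which define long-term stem cells. The other 8 were tested, of which 3 rose, 3 fell and 2 did not pass the test. Transcripts of 22 neutrophil genes made up 16.6 to 16.7% of all FPKM in MHCII-hi libraries and 3.65 to 3.69% in MHCII-lo libraries. In that list 21 genes rose, 1 (Lyz2) fell and none was at 0; S100a9 stood at 23315 ± 260.3 FPKM in MHCII-hi and 3598 ± 25.01 FPKM in MHCII-lo. Of erythroid genes 11 of 12 fell, and of monocyte and dendritic genes 10 of 11 fell. B cell genes rose in 2 of 3 tested (12 listed, summed level 363.7 to 371.7 FPKM in MHCII-hi and 119.99 to 127.3 FPKM in MHCII-lo). Plasma cell genes rose in 4 of 7 tested (summed level 803 to 806 FPKM in MHCII-hi and 449 to 457 FPKM in MHCII-lo). Promyelocyte genes rose in 3 and fell in 3 of 8 tested (summed level 5406 to 5464 FPKM in MHCII-hi and 6337 to 6490 FPKM in MHCII-lo). T and NK cell genes fell in 4 of 9 tested and none rose. Among all tested genes 40.6% were lower and 20.4% higher. The part of these marker differences in the results below was not tested, and in bulk RNA fewer cells of a type and less RNA per cell cannot be told apart.

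Across the 40 tested genes, 20 fell, 4 rose and 16 did not pass the test in MHCII-hi, where 60.9% of all tested genes changed in either direction. The 4 that rose were Mxd1, Max, Mxi1 and Polr1a, and the 20 that fell were all ribosome biogenesis genes. In the same fit 40.6% of all tested genes were lower and 20.4% higher, so the members' counts are read against a background in which most genes moved. After median-ratio scaling 10 members were lower and 9 higher, beside 25.9% and 28.2% of all tested genes. The members' median stood at −0.13 on the log2 scale, −0.0067 from that of all tested genes. FPKM of the 3 MHCII-hi and the 3 MHCII-lo libraries did not overlap for 28 of the 40 members, and the same held for 67.6% of all tested genes. Under 15 other settings, 10 members were lower in all of them (Polr1c, Polr1d, Fbl, Nop56, Nhp2, Nop10, Wdr43, Gnl3, Npm1 and Npm3) and 4 were higher in all of them (Mxd1, Max, Mxi1 and Polr1a). The share of all tested genes with calls kept in every setting was not computed, so these counts have no background beside them.

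The Myc network differed between the fractions in Max and in Mxd1 and Mxi1, repressors that pair with it, but Myc itself did not pass the test. Myc (chromosome 15, 61985391 to 61990374, GRCm38) had 34.14, 32.01 and 31.46 FPKM in the MHCII-hi libraries and 33.85, 34.55 and 36.01 FPKM in the MHCII-lo libraries. These values overlap, and the log2 fold change of −0.09 (95% interval −0.19 to 0.0011) had a limma adjusted p of 0.0793. Without MHCII-hi replicate 1 it was called lower (−0.13, limma adjusted p 0.0279), and after median-ratio scaling its sign turned (0.03, adjusted p 0.5103). The paralogs Mycn and Mycl were barely detected. Mycn had 0.32, 0.62 and 0.60 FPKM in MHCII-hi and 0.23, 0.48 and 0.24 FPKM in MHCII-lo. Mycl, the third family member, had 0.18, 0.42 and 0.27 FPKM in MHCII-hi and 0.72, 0.91 and 0.63 FPKM in MHCII-lo, so its groups did not overlap, but every value lay under 1 FPKM. In a fit without the filter on low values, Mycl was called lower (−0.44, limma adjusted p 0.0195) and Mycn was not called (0.20, limma adjusted p 0.288).

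Max, the obligate partner of Myc and of the repressors (chromosome 12, 76937269 to 76962201, GRCm38), had 44.23, 45.23 and 44.81 FPKM in MHCII-hi and 27.48, 26.14 and 28.75 FPKM in MHCII-lo. Every MHCII-hi library lay above every MHCII-lo library, by a ratio of means of 1.63 (log2 fold change 0.69, SE 0.0378, limma adjusted p 8.25e-06). The difference was larger for Mxd1, a Max partner that represses and opposes Myc (chromosome 6, 86647042 to 86669161, GRCm38). Mxd1 had 82.76, 83.92 and 83.23 FPKM in MHCII-hi and 15.85, 15.45 and 14.91 FPKM in MHCII-lo. This 5.41-fold difference (log2 fold change 2.36, SE 0.0295, limma adjusted p 9.91e-09) placed Mxd1 behind only 70 of the 12037 tested genes, and 3.70% of tested genes rose by at least 2-fold. It was 2.11 to 2.49 on the log2 scale across the 15 other settings. Mxi1, a close relative of Mxd1 (chromosome 19, 53310518 to 53375810, GRCm38), rose as well, with 15.47, 15.48 and 17.08 FPKM in MHCII-hi and 10.14, 10.40 and 10.65 FPKM in MHCII-lo (log2 fold change 0.58, limma adjusted p 6.00e-05).

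The other repressors of the family did not pass the test. Mxd3, which is linked to dividing cells, stood at 2.95 ± 0.245 FPKM in MHCII-hi and 3.51 ± 0.346 FPKM in MHCII-lo (limma adjusted p 0.069). Mxd4 stood at 5.53 ± 0.417 FPKM in MHCII-hi and 4.82 ± 0.329 FPKM in MHCII-lo (log2 fold change 0.17, limma adjusted p 0.0652), and it was called higher after median-ratio scaling (0.28, adjusted p 0.0116) and without MHCII-lo replicate 2 (0.21, adjusted p 0.0416). Mnt, the widely expressed Max partner, had 6.10 ± 0.445 FPKM in MHCII-hi and 6.30 ± 0.355 FPKM in MHCII-lo (adjusted p 0.5959 with limma), and its small difference turned sign under each of the other 3 scalings and without MHCII-hi replicate 3. Taking the 5 repressors as a sum, the MHCII-hi libraries held 112.8, 113.9 and 114.95 FPKM and the MHCII-lo libraries 40.43, 40.23 and 40.65 FPKM. Mxd1 made up 73.4, 73.7 and 72.4% of that sum in MHCII-hi and 39.2, 38.4 and 36.7% in MHCII-lo.

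Ratios of genes within a library do not depend on how libraries are scaled to each other; those given here were chosen after the values were seen and are descriptions without a test. The ratio of Mxd1 to Myc was 2.42, 2.62 and 2.65 in MHCII-hi libraries and 0.468, 0.447 and 0.414 in MHCII-lo libraries. Mxd1 was thus the more abundant transcript in MHCII-hi and Myc the more abundant in MHCII-lo. The ratio of Max to Myc was 1.296, 1.41 and 1.42 in MHCII-hi and 0.812, 0.757 and 0.798 in MHCII-lo.

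**Figure D1:**
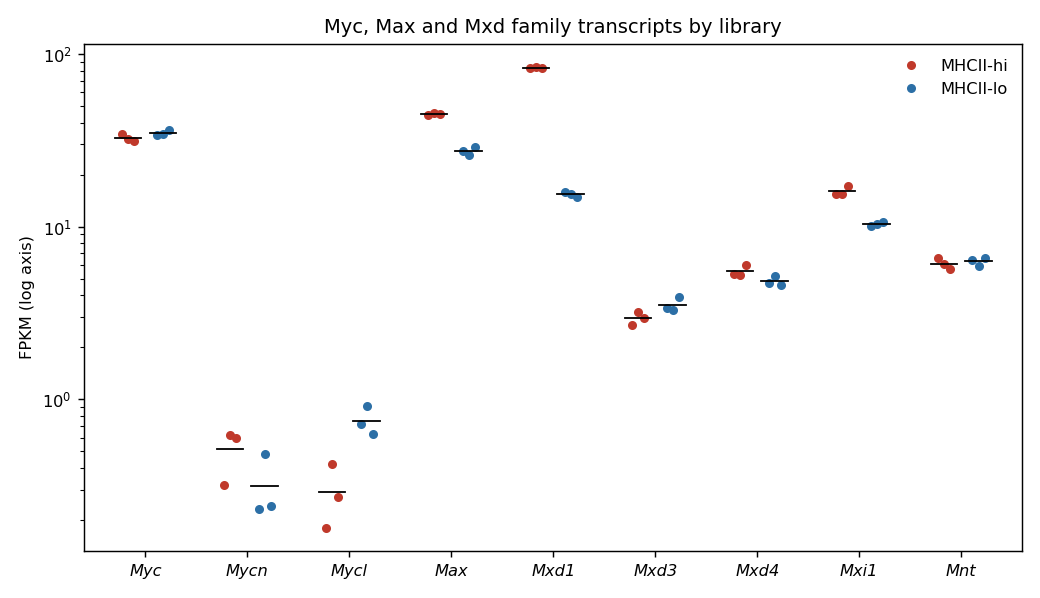
FPKM (log axis) of Myc, its paralogs, Max and the Max-binding repressors in each library, MHCII-hi in red and MHCII-lo in blue, with the mean of 3 libraries as a black line. The Mxd1 points of MHCII-hi lie at 82.76 to 83.92 FPKM and those of MHCII-lo at 14.91 to 15.85 FPKM, while the Myc points of both fractions lie between 31.46 and 36.01 FPKM and overlap.

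Promoters were searched for the E-box because both Myc and Mxd dimers bind it. Windows of 250 bases before to 50 bases from the transcript start were available from RefSeq (GRCm38.p6) for 36 of the 42 genes, and the letters CACGTG, which read the same on both strands, were found in 8 of them (22.2%). By comparison 8.09% of all 27025 genes with a window and 12.3% of tested genes with a window held it. Split by role, 17.9% of 28 ribosome biogenesis members and 37.5% of 8 Myc network members held it. Among 102 other ribosome biogenesis genes with a window, 20.6% held it. Shares are per gene, and some genes had more than 1 window (42 windows for the 36 members, 10550 for 8334 tested genes). The 8 stretches are shown 5′ to 3′ on the strand of the gene, with the E-box in capitals. They are the matches within these windows alone, and other sequences and positions were not searched. Myc, Npm1, Fbl, Rrp12, Rrs1 and Bop1 had no window. A match in letters is not a measured binding site.
Max: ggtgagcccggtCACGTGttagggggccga
Mnt: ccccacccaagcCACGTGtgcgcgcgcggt
Mxd4: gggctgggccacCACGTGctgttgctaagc
Nop2: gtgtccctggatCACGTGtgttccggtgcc
Pes1: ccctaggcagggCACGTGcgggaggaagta
Wdr43: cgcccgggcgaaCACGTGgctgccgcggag
Mybbp1a: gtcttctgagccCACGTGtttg
Utp20: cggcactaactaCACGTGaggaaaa
The printed stretches lie (GRCm38.p6) at chr12:76962234-76962263 for Max, chr11:74830789-74830818 for Mnt, chr5:34187912-34187941 for Mxd4 and chr6:125131811-125131840 for Nop2. Those of the other genes lie at chr11:3963965-3963994 for Pes1, chr17:71616220-71616249 for Wdr43, chr11:72441355-72441376 for Mybbp1a and chr10:88826765-88826789 for Utp20. Max, Mxd4 and Utp20 are on the minus strand and the others on the plus strand. The E-box of Max spans the start itself, that of Nop2 begins 60 bases before the start, that of Mnt 123 bases before and that of Mxd4 219 bases before. In Pes1, Wdr43, Utp20 and Mybbp1a it begins at base 3, 18, 38 and 41 of the transcript. Of these 8 genes, Max rose and Pes1 and Wdr43 fell as deposited, beside 20.4% of all tested genes higher and 40.6% lower. Mxd4, Mnt, Nop2, Utp20 and Mybbp1a did not pass the test. After median-ratio scaling the Pes1 call was lost (limma adjusted p 0.8004), and Mxd4 and Mybbp1a were called higher. Any part of the E-box in these changes was not tested.

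The window of Mxd1, the member with the largest change, held no E-box. The 100 bases before its start (chr6:86669160-86669259, minus strand, GRCm38.p6) are shown beside those of Max (chr12:76962249-76962348, minus strand) because these 2 genes had the largest increases, with each CG dinucleotide in capitals.
Mxd1: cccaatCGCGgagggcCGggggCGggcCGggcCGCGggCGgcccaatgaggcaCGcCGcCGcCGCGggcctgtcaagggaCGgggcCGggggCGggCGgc
Max: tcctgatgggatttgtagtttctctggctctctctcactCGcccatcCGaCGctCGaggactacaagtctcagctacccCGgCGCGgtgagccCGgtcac
The Mxd1 stretch is 86% G and C with 17 CG dinucleotides, and the Max stretch is 60% G and C with 8. Over the whole windows, which are longer and reach into the transcript, the median member had 58.8% G and C, and the median tested gene 60.7%. These medians are not over the same 100 bases, so they are no background for the 2 stretches.

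Subunits of RNA polymerase I moved in opposite directions. Polr1a, the largest subunit, which forms the active site with Polr1b, rose, while Polr1c and Polr1d, which are shared with RNA polymerase III and form its assembly platform, both fell. Polr1a (chromosome 6, 71909053 to 71984935, GRCm38) had 8.41, 8.88 and 8.67 FPKM in MHCII-hi and 5.97, 6.21 and 5.87 FPKM in MHCII-lo (log2 fold change 0.46, SE 0.0410, limma adjusted p 9.03e-05). Polr1c (chromosome 17, 46243920 to 46248054, GRCm38) had 10.71, 10.68 and 11.47 FPKM in MHCII-hi and 18.70, 16.31 and 16.62 FPKM in MHCII-lo (log2 fold change −0.61, SE 0.0583, limma adjusted p 0.000133). Its neighbour in the complex, Polr1d (chromosome 5, 147077050 to 147111597, GRCm38), had 15.59, 16.69 and 16.57 FPKM in MHCII-hi and 25.11, 22.75 and 21.51 FPKM in MHCII-lo (log2 fold change −0.48, limma adjusted p 0.000451). For each of the 3 genes the fractions did not overlap, and the calls held under the 15 other settings. Polr1b, the second largest subunit, had 7.32 ± 0.151 FPKM in MHCII-hi and 7.20 ± 0.457 FPKM in MHCII-lo (limma adjusted p 0.7308), and without MHCII-lo replicate 2 the sign of its difference turned (−0.014, adjusted p 0.8345). Mybbp1a, a nucleolar protein that binds Myb and acts on ribosomal RNA synthesis, had 40.9 ± 0.977 FPKM in MHCII-hi and 40.3 ± 0.418 FPKM in MHCII-lo (limma adjusted p 0.5634), and was called higher after median-ratio scaling (0.15, adjusted p 0.00362). Per library, the ratio of Polr1a to Polr1c, a pair chosen after the values were seen, was 0.785, 0.831 and 0.756 in MHCII-hi and 0.319, 0.381 and 0.353 in MHCII-lo.

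All 4 box C/D proteins fell as deposited, by unequal amounts, where 40.6% of all tested genes were lower. After median-ratio scaling 2 of the 4 (Fbl and Nop56) were lower, beside 25.9% of all tested genes. Fbl (fibrillarin), the methyltransferase of the particle (chromosome 7, 28169710 to 28179269, GRCm38), had 23.53, 22.70 and 23.58 FPKM in MHCII-hi and 37.85, 36.09 and 37.82 FPKM in MHCII-lo. It was 1.60 times lower in MHCII-hi (log2 fold change −0.66, SE 0.0320, limma adjusted p 4.39e-06), the largest decrease among the 40 members. Nop56, a core protein of the same particle, had 40.66, 39.65 and 42.62 FPKM in MHCII-hi and 51.64, 50.14 and 53.14 FPKM in MHCII-lo (log2 fold change −0.33, limma adjusted p 0.000262). Nop58, its paralog in the particle, fell less, at 13.3 ± 0.653 FPKM in MHCII-hi and 15.1 ± 0.287 FPKM in MHCII-lo (log2 fold change −0.16, limma adjusted p 0.0137), and was no longer called once scaled by median ratio (−0.041, adjusted p 0.4477). Rrp9, which in yeast and human is specific to a particle needed for cutting of the precursor, stood at 5.58 ± 0.527 FPKM in MHCII-hi and 6.67 ± 0.370 FPKM in MHCII-lo (log2 fold change −0.22, limma adjusted p 0.0304). The Rrp9 call was lost after median-ratio scaling (adjusted p 0.2301) and without MHCII-lo replicate 1 (0.0743), MHCII-lo replicate 3 (0.0933) or MHCII-hi replicate 3 (0.0656). A block on replicate numbers also ended it (0.0675). The ratio of Fbl to Nop56, chosen after the values were seen, was 0.579, 0.573 and 0.553 in MHCII-hi and 0.733, 0.7198 and 0.712 in MHCII-lo.

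The 4 core proteins of box H/ACA particles fell as deposited, and 2 of them (Nhp2 and Nop10) also after median-ratio scaling. Among all tested genes 40.6% were lower as deposited and 25.9% after that scaling. Nop10 (chromosome 2, 112261926 to 112263269, GRCm38), the smallest of them, had 45.75, 45.57 and 45.64 FPKM in MHCII-hi and 58.18, 57.11 and 55.89 FPKM in MHCII-lo (log2 fold change −0.32, limma adjusted p 4.46e-05). Nhp2, an RNA-binding core protein, had 42.59, 47.00 and 43.85 FPKM in MHCII-hi and 54.57, 56.10 and 57.07 FPKM in MHCII-lo (log2 fold change −0.32, limma adjusted p 0.00047). Dkc1 (dyskerin), the pseudouridine synthase, whose human gene is mutated in dyskeratosis congenita, stood at 26.5 ± 1.29 FPKM in MHCII-hi and 30.7 ± 1.37 FPKM in MHCII-lo (log2 fold change −0.21, limma adjusted p 0.00851). Gar1, which joins the particle last, stood at 19.6 ± 1.38 FPKM in MHCII-hi and 23.0 ± 0.906 FPKM in MHCII-lo (log2 fold change −0.22, limma adjusted p 0.0126). After median-ratio scaling Dkc1 (adjusted p 0.2086) and Gar1 (0.2002) lost their calls. Nolc1, the chaperone of both kinds of particle, had 31.0 ± 2.13 FPKM in MHCII-hi and 32.8 ± 0.926 FPKM in MHCII-lo and did not pass the test (limma adjusted p 0.2016). Without MHCII-hi replicate 3 it was called lower (−0.14, limma adjusted p 0.0197).

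Among the 5 factors of the small subunit, 2 fell and none rose, a share near the 40.6% of all tested genes that were lower. Their median lay −0.00095 from that of all tested genes. Wdr43, a WD-repeat protein of the small subunit processome, had 22.86, 23.60 and 23.81 FPKM in MHCII-hi and 27.33, 29.11 and 27.07 FPKM in MHCII-lo (log2 fold change −0.24, limma adjusted p 0.00134). Nop14 stood at 15.1 ± 0.424 FPKM in MHCII-hi and 17.7 ± 0.518 FPKM in MHCII-lo (log2 fold change −0.21, limma adjusted p 0.00241) and was not called once scaled by median ratio (adjusted p 0.0919). Utp20, a very large scaffold of the processome, stood at 5.91 ± 0.169 FPKM in MHCII-hi and 5.94 ± 0.104 FPKM in MHCII-lo, with a log2 fold change of −0.0071 (95% interval −0.104 to 0.0902). Wdr75, a WD-repeat partner of Wdr43 in the processome, had 10.2 ± 0.2196 FPKM in MHCII-hi and 11.2 ± 0.793 FPKM in MHCII-lo (limma adjusted p 0.0988). Rrp12, an export factor of the precursor in yeast, had 7.91 ± 0.304 FPKM in MHCII-hi and 8.697 ± 0.543 FPKM in MHCII-lo (limma adjusted p 0.0907), and was called lower without MHCII-lo replicate 1 (−0.17, limma adjusted p 0.0278).

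Of the 11 factors of the large subunit 5 fell as deposited, a share near the 40.6% of all tested genes that were lower. After median-ratio scaling 1 was lower (Gnl3) and 3 were higher (Bop1, Rrp1b and Ebna1bp2). As deposited, the median of the 11 lay 0.021 above that of all tested genes. Gnl3 (nucleostemin), a nucleolar GTPase named for its abundance in stem cells, had 16.68, 16.62 and 17.29 FPKM in MHCII-hi and 20.68, 20.57 and 19.34 FPKM in MHCII-lo (log2 fold change −0.25, SE 0.0375, limma adjusted p 0.00123). Pes1, Bop1 and Wdr12 form the PeBoW complex, which matures the large subunit RNA, and differences between their changes were not tested. Pes1 stood at 37.97 ± 2.797 FPKM in MHCII-hi and 42.1 ± 0.422 FPKM in MHCII-lo, and its call (log2 fold change −0.15, limma adjusted p 0.0453) was lost after median-ratio scaling (0.8004) and without MHCII-lo replicate 1 (0.0949), 2 (0.0863) or 3 (0.1102). Bop1 stood at 18.2 ± 1.01 FPKM in MHCII-hi and 17.1 ± 1.36 FPKM in MHCII-lo (limma adjusted p 0.30). Wdr12 stood at 4.55 ± 0.0351 FPKM in MHCII-hi and 4.87 ± 0.377 FPKM in MHCII-lo (limma adjusted p 0.2628). Neither passed the test as deposited.

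The other large subunit factors changed little in size. Noc2l, a partner of nucleolar assembly complexes that also binds histones, had 27.0 ± 0.955 FPKM in MHCII-hi and 30.9 ± 1.47 FPKM in MHCII-lo (log2 fold change −0.19, limma adjusted p 0.00899). Nop16 fell in similar measure, at 15.5 ± 0.613 FPKM in MHCII-hi and 17.8 ± 0.558 FPKM in MHCII-lo (log2 fold change −0.19, limma adjusted p 0.00655). Rrs1, known in yeast to bring the 5S particle into the precursor, stood at 22.9 ± 0.779 FPKM in MHCII-hi and 24.7 ± 0.312 FPKM in MHCII-lo (log2 fold change −0.11, limma adjusted p 0.0285). The Rrs1 call was lost without MHCII-hi replicate 1 (0.0848) or 2 (0.0754) and without MHCII-lo replicate 2 (0.0731) or 3 (0.0795), and its sign turned after median-ratio scaling (0.02). Noc2l (adjusted p 0.3003) and Nop16 (0.2406) also lost their calls after that scaling. Noc3l, the partner of Noc2l, stood at 6.17 ± 0.520 FPKM in MHCII-hi and 6.65 ± 0.343 FPKM in MHCII-lo (limma adjusted p 0.2435). Nop2, a methyltransferase of the large subunit RNA, stood at 18.9 ± 0.786 FPKM in MHCII-hi and 20.2 ± 0.360 FPKM in MHCII-lo (limma adjusted p 0.0601), and was called lower without MHCII-hi replicate 1 (−0.13, limma adjusted p 0.0339). Rrp1b stood at 7.19 ± 0.309 FPKM in MHCII-hi and 6.90 ± 0.462 FPKM in MHCII-lo, and Ebna1bp2, an assembly factor that binds Rrs1 in yeast, at 19.6 ± 0.616 FPKM in MHCII-hi and 18.6 ± 0.631 FPKM in MHCII-lo. Both missed the threshold as deposited (limma adjusted p 0.4381 and 0.1394).

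All 3 nucleolar chaperones fell as deposited, where 40.6% of all tested genes were lower. After median-ratio scaling 2 of the 3 (Npm1 and Npm3) were lower, beside 25.9% of all tested genes. Npm1 and Ncl had the highest levels of the ribosome biogenesis members. Npm1 (nucleophosmin), the scaffold of the granular nucleolus that is often mutated in human myeloid leukemia (chromosome 11, 33152287 to 33163206, GRCm38), had 278.31, 282.48 and 271.16 FPKM in MHCII-hi and 349.82, 345.78 and 339.87 FPKM in MHCII-lo. The groups did not overlap, with a log2 fold change of −0.31 (SE 0.0212, limma adjusted p 2.28e-05). Npm3, its smaller relative (chromosome 19, 45747734 to 45749591, GRCm38), fell more, with 31.39, 34.26 and 32.77 FPKM in MHCII-hi and 47.35, 48.97 and 47.14 FPKM in MHCII-lo (log2 fold change −0.53, SE 0.0373, limma adjusted p 2.81e-05). Ncl (nucleolin), which binds nascent ribosomal RNA, had 96.03, 94.22 and 95.52 FPKM in MHCII-hi and 104.38, 106.14 and 102.94 FPKM in MHCII-lo (log2 fold change −0.13, limma adjusted p 0.00157), a difference that was close to that of the median tested gene and was not called once scaled by median ratio (−0.0015, adjusted p 0.9609). The 33 ribosome biogenesis members summed to 985.84 to 1003.7 FPKM in MHCII-hi libraries and 1171 to 1191 FPKM in MHCII-lo libraries.

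**Figure D2:**
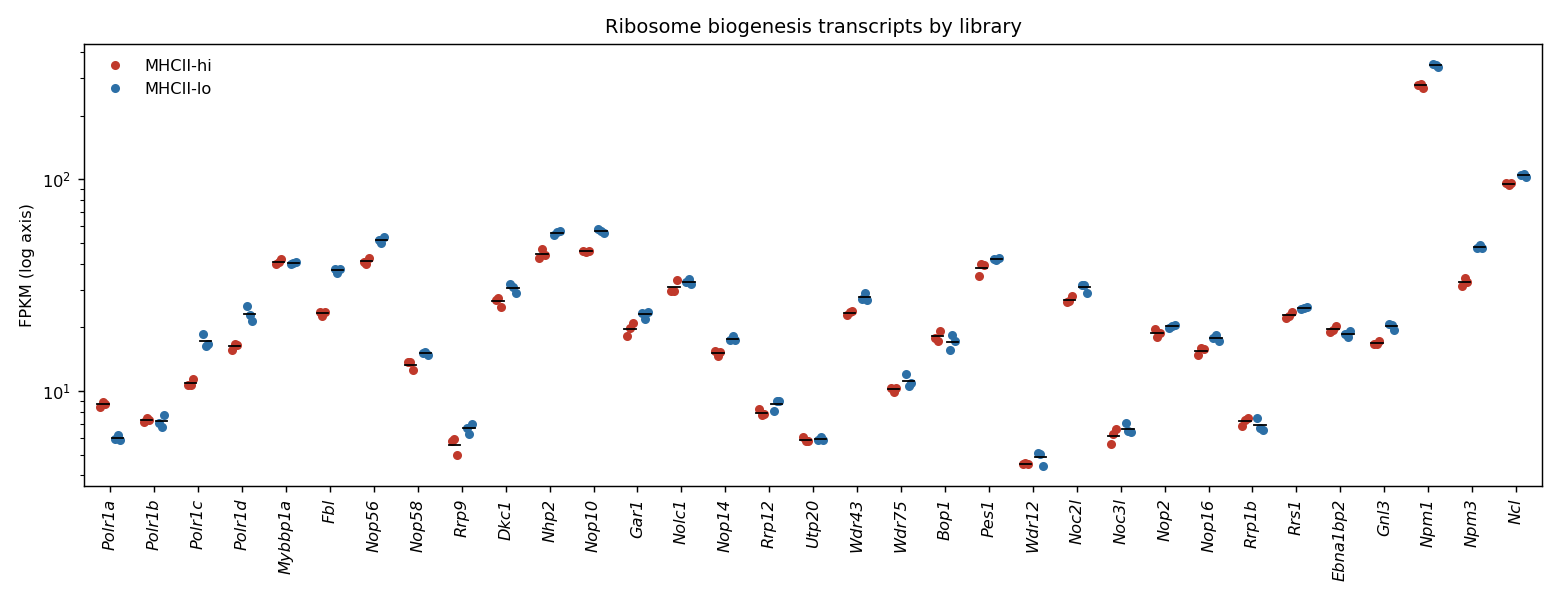
FPKM (log axis) of the 33 ribosome biogenesis genes in each library, MHCII-hi in red and MHCII-lo in blue, with the mean of 3 libraries as a black line. Polr1a lies higher in MHCII-hi (8.41 to 8.88 FPKM against 5.87 to 6.21 FPKM), whereas Fbl, Polr1c and Npm3 lie lower in MHCII-hi with no overlap.

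**Figure D3:**
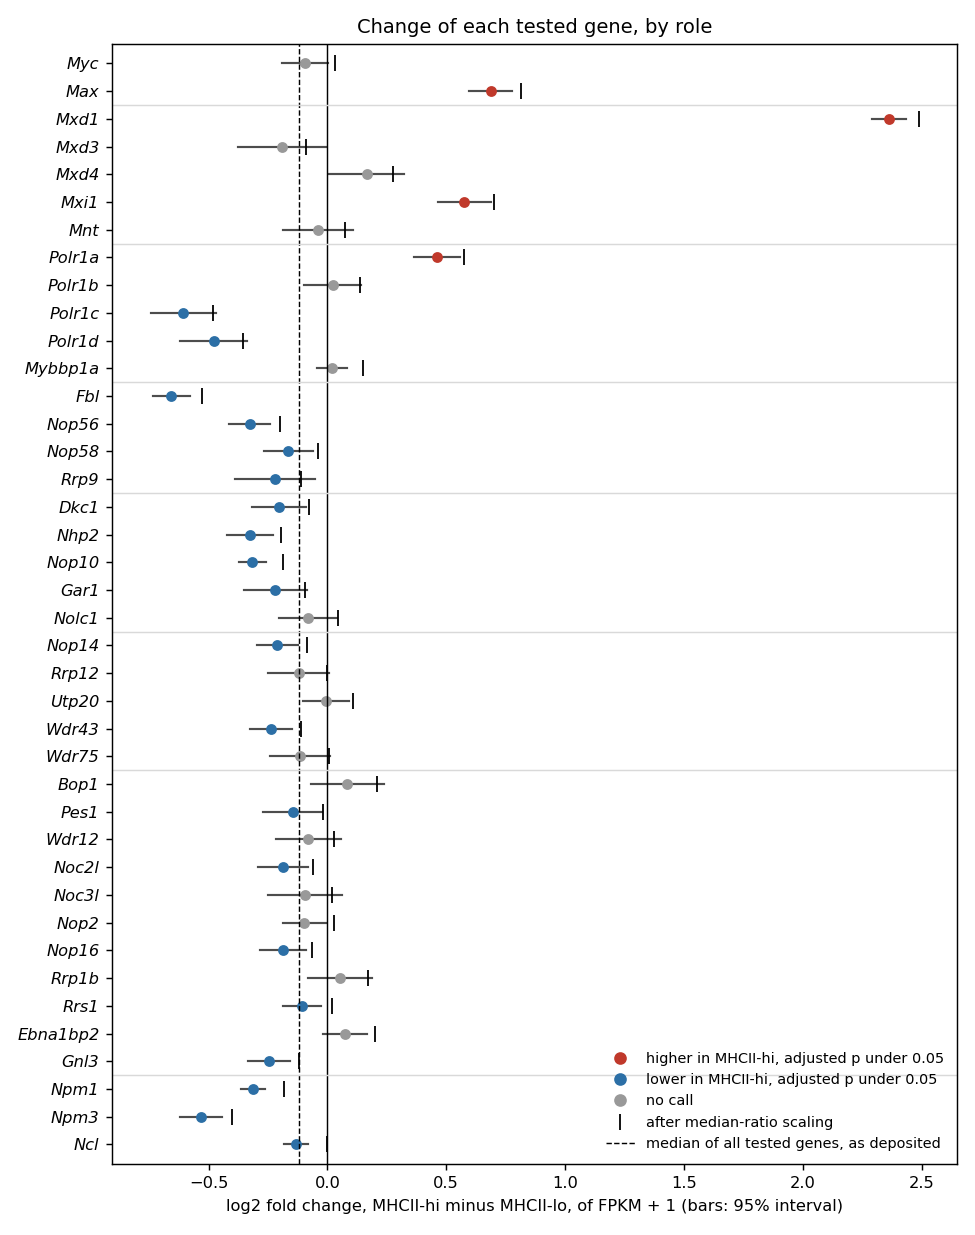
Log2 fold change of FPKM + 1, MHCII-hi minus MHCII-lo, for the 40 tested genes ordered by role, with 95% intervals from limma; red and blue points passed an adjusted p of 0.05 and grey points did not. The dashed line is the median of all tested genes (−0.12), and black ticks give each gene after median-ratio scaling, which moves the members to the right by a similar amount and leaves Mxd1 (2.36 as deposited) far from the rest.

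Genes of the same processes outside the 42 members were mostly lower or uncalled as deposited. The counts of these and the following lists stand beside 40.6% of all tested genes lower and 20.4% higher as deposited, and 25.9% lower and 28.2% higher after median-ratio scaling. Of 125 further ribosome biogenesis genes in 4 lists, 121 could be tested, of which 67 were lower and 2 higher, with a median of −0.17 on the log2 scale (−0.05 against that of all tested genes); after median-ratio scaling 26 were lower and 11 higher. In the list of small subunit factors 24 of 45 fell and 1 rose (11 lower and 5 higher after median-ratio scaling). Imp3, a component of the box C/D particle needed for cutting of the precursor, stood at 22.3 ± 0.565 FPKM in MHCII-hi and 34.5 ± 2.34 FPKM in MHCII-lo (log2 fold change −0.60, limma adjusted p 7.21e-05). Large subunit factors fell in 31 of 50 and rose in 1 (11 lower and 3 higher after median-ratio scaling). The 1 that rose as deposited was Mdn1, the giant ATPase that remodels large subunit precursors, at 4.77 ± 0.0351 FPKM in MHCII-hi and 3.20 ± 0.136 FPKM in MHCII-lo (log2 fold change 0.46, limma adjusted p 0.000191). Nop53 stood at 27.7 ± 0.216 FPKM in MHCII-hi and 39.8 ± 1.63 FPKM in MHCII-lo (log2 fold change −0.50, limma adjusted p 2.51e-05). Of 8 further genes of RNA polymerase I transcription, 4 fell and none rose as deposited, and 1 was lower and 2 higher after median-ratio scaling. Their median of −0.12 was close to that of all tested genes. Among them was Taf1d, a subunit of the promoter selectivity factor, at 11.2 ± 0.316 FPKM in MHCII-hi and 15.4 ± 0.504 FPKM in MHCII-lo (log2 fold change −0.42, limma adjusted p 0.000112). In the RNA exosome and RNase MRP, which trim and cut the precursor, 8 of 18 fell and none rose as deposited, a share near that of all tested genes, and 3 were lower and 1 higher after median-ratio scaling.

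Other genes of the Myc network, which hold cofactors and regulators of Myc stability, went both ways, with 5 of 16 lower and 3 higher as deposited, and 3 lower and 7 higher after median-ratio scaling. Pim1, a kinase that cooperates with Myc, stood at 77.9 ± 0.569 FPKM in MHCII-hi and 95.4 ± 1.03 FPKM in MHCII-lo (limma adjusted p 2.69e-05), and Mlx, a Max-like protein, at 30.7 ± 1.42 FPKM in MHCII-hi and 25.4 ± 0.764 FPKM in MHCII-lo (limma adjusted p 0.00142). Of 24 textbook Myc targets outside the nucleolus, 17 were lower and 1 higher, with a median of −0.197 (−0.08 relative to the median tested gene), and after median-ratio scaling 11 were lower and 3 higher. Hspe1, a mitochondrial chaperonin, had 36.4 ± 1.22 FPKM in MHCII-hi and 61.6 ± 1.55 FPKM in MHCII-lo (log2 fold change −0.74, limma adjusted p 3.05e-06). The 1 that rose was Ldha, lactate dehydrogenase, at 195 ± 1.96 FPKM in MHCII-hi and 147 ± 0.846 FPKM in MHCII-lo (log2 fold change 0.40, limma adjusted p 2.38e-06). Of 27 cell cycle genes 20 were lower and 1 higher, with a median of −0.26, and after median-ratio scaling 15 were lower and 3 higher. Mcm6, a replicative helicase subunit, had 62.7 ± 0.844 FPKM in MHCII-hi and 89.0 ± 1.22 FPKM in MHCII-lo (limma adjusted p 3.05e-06), while Mki67, a marker of dividing cells, had 79.9 ± 0.419 FPKM in MHCII-hi and 82.6 ± 0.746 FPKM in MHCII-lo and did not pass the test (limma adjusted p 0.0797). The part of division or of neutrophil transcripts in the ribosome biogenesis values was not tested.

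Transcript length also moved with the change, and was examined after the values were seen. Over the 40 tested members, the log2 fold change and the length of the longest principal coding transcript annotated in GENCODE had a Spearman rho of 0.696, and over the 33 ribosome biogenesis members 0.799. These are correlations across genes that share the same 6 libraries, so genes are not independent replicates. The same rho was 0.206 over 9898 tested genes and 0.281 over 120 other ribosome biogenesis genes. Among the 9 members of up to 1500 bases, which include Npm3, Fbl, Polr1c, Polr1d, Nhp2, Nop10 and Gar1, the median was −0.32. It was −0.18 in the 10 members of over 1500 up to 2500 bases, −0.11 in the 12 of over 2500 up to 4000 bases and −0.0071 in the 9 longer ones, which include Polr1a, Utp20 and Mxd1. Each of these classes holds few members. For the 9898 tested genes with such a transcript the medians of the same classes were −0.23, −0.14, −0.103 and −0.04. Of the 9 members in the longest class 1 fell (Ncl) and 2 rose (Polr1a and Mxd1), beside 33.4% lower and 27.4% higher among all 2960 genes of that class. The Ncl call was lost after median-ratio scaling. Ncl (8202 bases) and Wdr12 (10012 bases) are in that class by annotated length, and the transcript in use in these cells was not determined. FPKM divides by length, and the part of length in the differences between members was not tested.

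**Figure D4:**
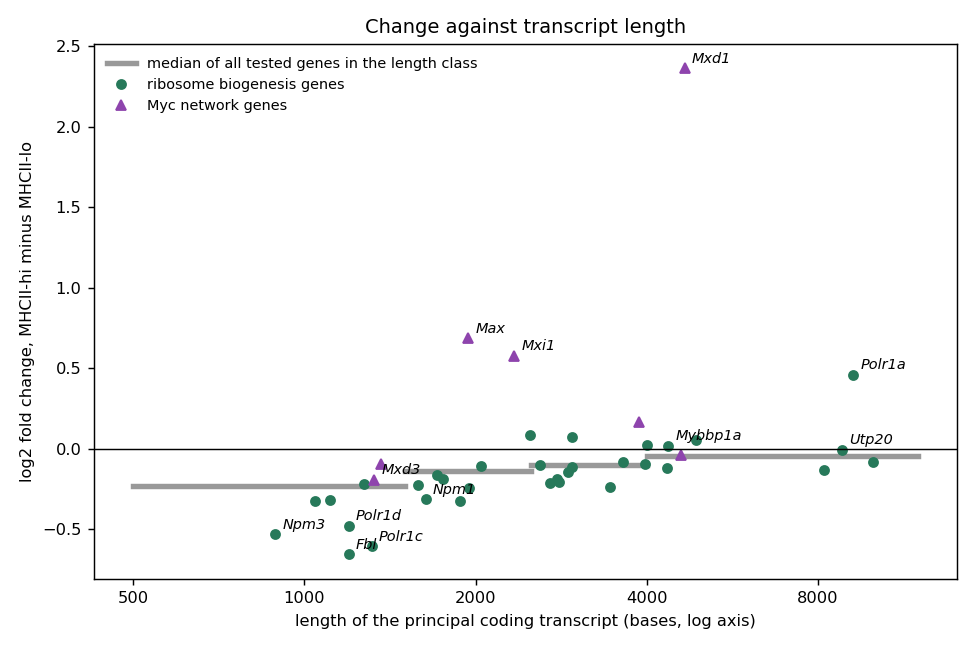
Log2 fold change of FPKM + 1, MHCII-hi minus MHCII-lo, against the annotated length of the longest principal coding transcript (bases, log axis). Green circles are the 33 ribosome biogenesis genes and purple triangles the 7 tested Myc network genes. Grey bars are medians per length class of the 9898 tested genes with an annotated principal coding transcript. Among green points, Fbl (−0.66) and Npm3 (−0.53) lie low at the short end; at the long end Wdr12 (−0.08), Utp20 (−0.0071) and Ncl (−0.13) lie nearer 0 and Polr1a (0.46) is the single high point. Mxd1, Max and Mxi1 stand above the grey bars.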

How the data were processed

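The authors deposited 1 table per library with 1 value for each of 30803 rows named by gene; the submitters' processing notes name fastp, HISAT2, StringTie and GRCm38 (mm10), with no versions. Per the labels' protocols, the library kit keeps strand and selects mRNA; use of strand in counting is not given in the sources used here. The unit of the deposited values was inferred to be FPKM, since they have 2 decimals, do not sum to a fixed total and StringTie writes FPKM; no header names it. Low values of genes with 1 exon and 600 to 4000 bases showed no step of whole fragments (mean cosine at most 0.0995 to 0.127), so the depth is unknown and counting error cannot be stated.

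Where a symbol was repeated (70 rows), the row of highest mean was used. Those reaching a mean of 1 FPKM were fitted as log2(FPKM + 1), which understates changes of low genes, with limma 3.58.1 in R 4.3.3, an intensity trend and group as the only term. The fit was also run on simulated data in which few genes changed and no shift between libraries was set. That run does not bear on calls in data where 60.9% of all tested genes changed. The members, lists and tests were chosen with earlier results of these data known. Named genes are all members, the 4 smallest p of each pathway list (of which a part is printed), the sort genes and fixed markers; Lyz2 was named after its value was seen. Of 340 listed symbols, 4 were not matched. Promoter windows came from RefSeq and lengths from GENCODE (longest APPRIS principal coding transcript). Alternatives changed the pseudocount, the filter on low values, the scaling, the intensity trend, a block on replicate numbers, or left out 1 library. Other steps used Python 3.11.15 with pandas 2.3.3 and scipy 1.17.1.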

Additional observations from a re-analysis of the deposited data

How the results depend on the processing

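Among the alternatives, scaling moved the counts of calls most, although 10 lower and 4 higher member calls were kept after median-ratio scaling. As deposited, 20 members were lower and 4 higher, 67 other ribosome biogenesis genes lower and 2 higher, and 4883 of all tested genes lower and 2450 higher (33.4% of calls). After median-ratio scaling these were 10 and 9, 26 and 11, and 3123 and 3392 (52.1% of calls). With library totals taken without neutrophil markers they were 10 and 9, 25 and 11, and 3102 and 3409 (52.4%). Quantile normalization gave 17 and 6 members, 4022 and 2817 genes, and 6 other ribosome biogenesis genes higher, and a minimum mean of 5 FPKM left 1 of those higher. The median of the members was −0.13 as deposited, −0.0022 after median-ratio scaling, −0.00034 without neutrophil markers in the totals, −0.091 under quantile normalization, −0.133 with a pseudocount of 0.1 and −0.095 with a pseudocount of 5. Leaving out each library gave −0.14 to −0.1145.

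Signs turned after median-ratio scaling for Myc (0.033), Mnt (0.073), Nolc1 (0.046), Utp20 (0.11), Wdr75 (0.0053), Wdr12 (0.028), Noc3l (0.019), Nop2 (0.027) and Rrs1 (0.0195). With totals without neutrophil markers they turned for Myc (0.035), Mnt (0.074), Nolc1 (0.048), Utp20 (0.107), Wdr75 (0.0071), Wdr12 (0.0298), Noc3l (0.021), Nop2 (0.029), Rrs1 (0.021) and Ncl (0.00046). Under quantile normalization they turned for Mnt (0.028) and Utp20 (0.055). Leaving out each library gave −0.0272 to 0.0053 for Utp20 (above 0 without MHCII-hi replicate 2 or 3 or MHCII-lo replicate 2), −0.0867 to 0.0037 for Mnt (above 0 without MHCII-hi replicate 3) and −0.014 to 0.0648 for Polr1b (below 0 without MHCII-lo replicate 2). The cause was not tested.

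Same-numbered libraries did not deviate together (correlations −0.0533 to −0.0435), while libraries of different numbers had correlations of 0.0042 to 0.0408. Deviations were taken from means of 3 libraries, which ties these values to each other. They cannot settle whether same-numbered libraries share mice. With the replicate number as a block 19 members were lower and 4 higher, and the Rrp9 call was lost. The scaling alternative without neutrophil markers was chosen with earlier results known. Depth is unknown, so the precision of Mycn and Mycl, under 1 FPKM in every library, cannot be given.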
